A study of Homo sapiens with 23 samples.

Results

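Among xenograft tumours of the human cutaneous squamous carcinoma line SCC-13 with an intact Flower gene (hFWE WT), 3 of 12 expressed terminal differentiation genes at lower levels. The account here concerns what else set those 3 tumours apart from the rest. They are specimen 5529 of line 5B2 and specimens 5530 and 5531 of line 6C9, called poorly differentiated here. They were set against 8 well differentiated WT tumours: 5526, 5527 and 5528 of line 5B2, 5532 of line 6C9, and 5534, 5535, 5536 and 5537 of line 6C10. WT specimen 5533 of line 6C9, a shallow library that stands apart from the others, was left out. Of the 23 tumours of the series, 11 WT tumours therefore entered the comparison, and the 11 tumours with Flower knocked out (hFWE KO; lines 2F7, 2B8 and 1G10) served as samples that the choice had not used. All tumours grew for 26 days as subcutaneous grafts in NCG mice, which lack T, B and NK cells but keep a mouse stroma, vessels and myeloid cells. The labels give the lines by code only and say neither how each was derived nor whether each tumour had a mouse of its own, so the spread between tumours may be partly technical. RNA was selected for poly(A) tails and measured per gene in bulk tissue.

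Squamous carcinoma grows from keratinocytes, which in the epidermis leave a proliferating basal layer and pass through a spinous layer to a cornified envelope made of crosslinked proteins and lipids. Tumours keep this programme to differing degrees, and the grade of a squamous carcinoma is read from how much of it is left. Cells at the invasive edge of such tumours are known for a partial epithelial-mesenchymal transition, in which matrix proteins, proteases and integrins are expressed while the epithelial keratins stay on. Differentiation here means expression of genes, since no histology is among the files used.

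The 3 tumours were chosen by their expression of terminal differentiation genes, so those genes and every other difference in the WT tumours are given as a description, without a test. The differentiation score of a tumour was the mean of 4 list scores (cornified envelope, late keratins and spinous markers, epidermal proteases and inhibitors, barrier lipids), each the mean log2(normalized value + 1) of its genes. The score was 9.79 in 5529, 9.96 in 5530 and 9.61 in 5531, against 10.63 to 10.91 in the 8 well differentiated tumours. Just inside the choice lay 5530 at 9.96, and just outside it 5532 at 10.63. The 11 KO tumours ranged more widely, between 7.89 in 5549 and 10.42 in 5539. All 4 list scores separated the WT groups: the envelope score averaged 9.87 ± 0.10 in poorly differentiated and 10.91 ± 0.09 in well differentiated tumours, and the barrier lipid score 8.64 ± 0.18 and 9.35 ± 0.16 (SD, n = 3 and 8).

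**Figure D1:**
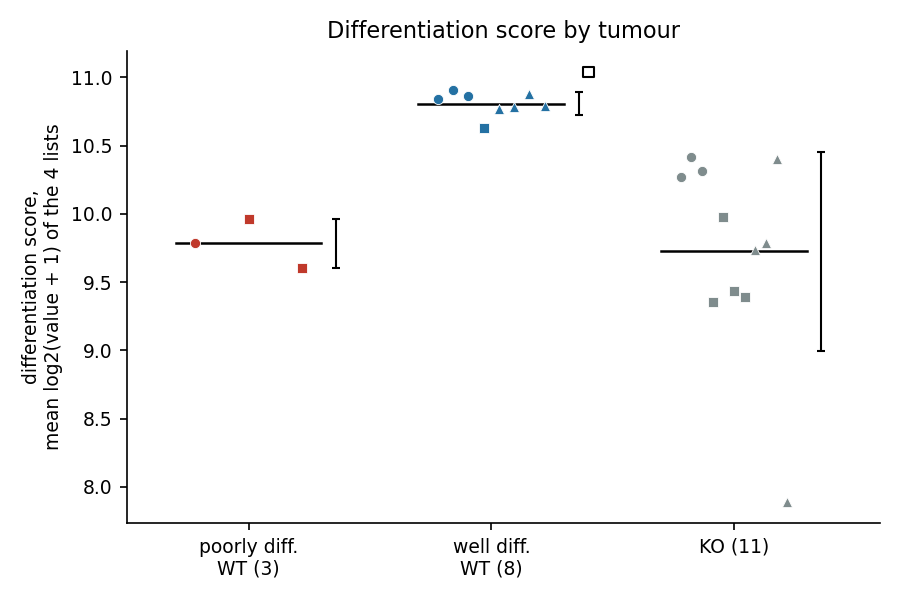
Differentiation score of every tumour on the y axis (mean log2 value of the 4 lists), with poorly differentiated WT, well differentiated WT and KO tumours from left to right; points are tumours, shapes are lines within a genotype, lines are means, bars are SD, and the open square is the left-out specimen 5533. The 3 poorly differentiated tumours lie between 9.61 and 9.96, inside the KO range and below the 8 well differentiated ones, which start at 10.63.

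The libraries of the groups were of like depth, apart from specimen 5532. Estimated assigned reads were between 14381044 and 16814166 in the poorly differentiated tumours, and between 13087795 and 22081463 in the well differentiated tumours other than 5532, which had 7012040. Mitochondrial transcripts made up 1.70% to 3.38% of the signal in poorly differentiated and 1.46% to 3.50% in well differentiated tumours. No 2 of the 11 WT libraries were alike within sampling noise: over their 55 pairs, chi-square divided by its degrees of freedom was at least 7.87. The label of keratinocyte carcinoma held in all of them: KRT5, a basal keratin, was at 286167, 301274 and 343215 in 5529, 5530 and 5531, against 193492 to 337099 in the 8. The targeted gene CACFD1, which encodes Flower, was at 353, 322 and 286 in the 3 tumours, against 331 to 432 with a median of 405 in the 8, and the groups overlapped.

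In 2 of the 3 poorly differentiated tumours, genes of chromosome 20 as a whole were expressed at a higher level. Relative to the mean of the 8 well differentiated tumours, the median over 408 chromosome 20 genes was 1.45-fold in 5529 and 1.47-fold in 5531, but 1.02-fold in 5530. The 8 tumours lay between 0.993-fold and 1.03-fold. Outside chromosome 20 and the mitochondrial genome, no chromosome's median in 5529 or 5531 left the range of -0.11 to 0.14 on the log2 scale. Chromosome 20 was also higher in 6 of 11 KO tumours, at 1.29-fold in 5540, 1.34-fold in 5543 and 5549, 1.41-fold in 5547, 1.42-fold in 5548 and 1.44-fold in 5542, which include both the lowest-scoring KO tumour (5549) and one of the highest (5548). Of the genes described below, 3 of the 69 shifted higher and 0 of the 141 shifted lower were on chromosome 20, which holds 408 of the 15878 genes tested. DNA copy number was not measured.

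**Figure D2:**
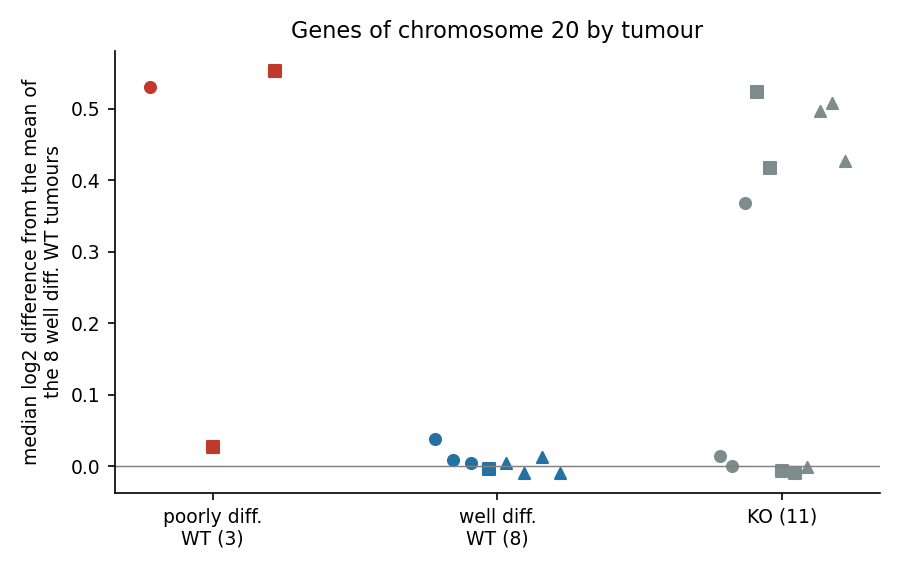
Median log2 difference of chromosome 20 genes from the mean of the 8 well differentiated tumours (y axis) for poorly differentiated WT, well differentiated WT and KO tumours from left to right; points are tumours and shapes are lines within a genotype. Specimens 5529 and 5531 lie at 0.53 and 0.55, 5530 at 0.03, and 6 of 11 KO tumours between 0.37 and 0.52.

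A gene was called shifted when its mean log2(value + 1) differed by at least 1, a 2-fold difference, and the 3 tumours did not overlap the 8. Of 15878 genes with a mean of at least 10, 74 (0.466%) were shifted higher and 196 (1.23%) lower in the poorly differentiated tumours. That mean is over 3 poorly and 8 well differentiated tumours. A gene expressed in the 8 alone therefore passes it more easily than one expressed in the 3 alone. The numbers of higher and lower genes are thus not on an equal footing. No overlap alone was met by 851 genes (5.36%) higher and 1099 (6.92%) lower. The differentiation families that chose the tumours account for 5 of the higher and 55 of the lower shifted genes. The remaining 69 higher genes, 61 of them protein coding, and 141 lower genes, 94 of them protein coding, are the subject of what follows. Among the 141 were also 28 long non-coding RNAs and 11 processed pseudogenes. Many of these genes are low: 42 of the 69 and 70 of the 141 had a mean under 50. The median difference over all genes was 0.01.

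Several of the named genes that were higher in the poorly differentiated tumours encode matrix proteins or act on the matrix. MMP3, the secreted protease stromelysin-1 (chromosome 11), was at 976 in 5529, 912 in 5530 and 1541 in 5531, against 269 to 785 with a median of 352 in the 8 well differentiated tumours. Its log2 difference was 1.63 with SE 0.30, and all 3 lay above all 8, of which 5536 came closest. Fibrillar and associated collagens were shifted as well. COL5A1, which helps set the width of collagen fibrils (chromosome 9), was at 2508, 2712 and 2911, against 869 to 1869 with a median of 990, a log2 difference of 1.30 with SE 0.14. COL16A1, a fibril-associated collagen found at the epidermal basement membrane zone, was at 2927, 2746 and 2764, against 913 to 1998 with a median of 1124. In both collagens the 3 tumours lay close together; the highest of the 8 was 5537 for COL5A1 and 5528 for COL16A1.

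Further matrix genes followed. COL1A1 and COL1A2, the chains of type I collagen, had log2 differences of 1.16 and 1.01, and COL6A1 of type VI collagen one of 1.17. EFEMP2, a fibulin needed for elastic fibres, was at 90.3, 94.8 and 75.4 in the 3 tumours, against 28.8 to 59.9 in the 8. MEGF6, a protein of EGF-like repeats, was at 648, 436 and 452, against 125 to 248. ANGPTL2, a secreted angiopoietin-like protein, was at 130, 194 and 229, against 47.2 to 102. The 3 tumours kept above the 8 in each of these genes by the rule that named them, and the size of the gap differed, being narrow in ANGPTL2 for 5529.

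Regulators of signalling and transcription were also among the higher genes. TWIST2, a basic helix-loop-helix factor of mesenchymal cells, was at 58.6, 112 and 73.6 in 5529, 5530 and 5531, against 15.6 to 51.4 with a median of 31.6 in the 8, a log2 difference of 1.38 with SE 0.34. SFRP2, a secreted Wnt modulator, was at 280, 463 and 329, against 111 to 187. DACT1, an intracellular regulator of Wnt signalling, was at 91.2, 100.4 and 120.3, against 25.0 to 71.7. The single largest difference among higher genes with a mean of at least 50 was that of DLGAP3, a scaffold protein of synapses, at 1.66 with SE 0.47. It was uneven: DLGAP3 was at 227 and 244 in 5529 and 5531 but at 90.9 in 5530, against 42.8 to 72.2 in the 8. MEDAG, known from fat cell formation, was split the same way, at 780 and 1021 but 426 in 5530, against 139 to 375. CDK18, a cyclin-dependent kinase, was at 617, 597 and 553, against 199 to 424, and CRACR2B, a regulator of calcium entry, at 83.5, 83.8 and 96.9, against 26.8 to 44.9.

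Other lower genes lay outside the differentiation families. Those families were the 4 lists of the score and a set of gene name patterns. Late epidermal genes that neither holds, such as CARD18, therefore remain among the 141. PSAPL1, a saposin-like protein (chromosome 4), was at 9.60, 45.1 and 0.897 in the 3 tumours, against 77.7 to 359 with a median of 233 in the 8, a log2 difference of -4.22 with SE 1.36 that was largest in 5531. CARD18, an inhibitor of caspase-1 expressed late in the epidermis (chromosome 11), was at 16.3, 58.5 and 9.87, against 169 to 499 with a median of 341, a log2 difference of -3.95 with SE 0.75. PYDC1, a pyrin-domain protein that restrains inflammasomes, was at 5.76, 25.3 and 11.7, against 80.0 to 138.5. NLRP10, a NOD-like receptor of keratinocytes, was at 95.1, 141 and 47.6, against 254 to 480. Of the 3 tumours, 5530 was the highest in all 4 of these genes, as it was in differentiation score.

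Secreted and membrane proteins were among the lower genes as well. AZGP1, a secreted zinc-binding glycoprotein (chromosome 7), was the most abundant of those named, at 550, 1094 and 330, against 2440 to 4333 with a median of 3126, a log2 difference of -2.44 with SE 0.51. Its pseudogene copy AZGP1P1, named after its values were seen, was lower too, at 43.6, 44.4 and 13.0, against a median of 102, and reads of the copies could be divided between them, so their values are uncertain. AQP5, a water channel of glands (chromosome 12), was at 82.6, 198 and 102, against 474 to 1037 with a median of 684, and had a log2 difference of -2.56 with SE 0.40. IGFL2 and IGFL3, related secreted proteins of the IGF-like family on chromosome 19, had differences of -1.99 and -2.43. IGFL2 was at 269, 398 and 107, against 661 to 1128. Their relative IGFL1, named after its values were seen, was at 2666, 1820 and 2072, against 945 to 2689, and overlapped. LY6G6C, a GPI-anchored surface protein (chromosome 6), was at 583, 679 and 401, against 1070 to 1648 with a median of 1284.

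Enzymes and ligands completed the named lower genes. DIO2, the deiodinase that activates thyroid hormone, was at 96.0, 177 and 153 in the 3 tumours, against 344 to 921 with a median of 746 in the 8. ACP3, an acid phosphatase, was at 289, 517 and 227, against 767 to 2036. HMOX1, the stress-inducible haem oxygenase, was at 254, 294 and 321, against 833 to 996, a log2 difference of -1.63 with SE 0.10, the gap being wide beside the spread in either group. TNFSF9, the ligand of 4-1BB, was at 75.9, 86.2 and 32.3, against 206 to 316. HSPB8, a small heat shock protein, was at 340, 709 and 292, against 808 to 1497. AADACL2, a lipase-like protein, was at 16.8, 40.9 and 31.6, against 68.5 to 168. Among immediate early genes, EGR3, a zinc finger factor induced by growth factor signals, was at 284, 678 and 372, against 775 to 1347. Its relative EGR2 was at no more than 60.9 in the 3 tumours and at no less than 78.1 in the 8. The other 22 tested immediate early genes were not shifted.

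**Figure D3:**
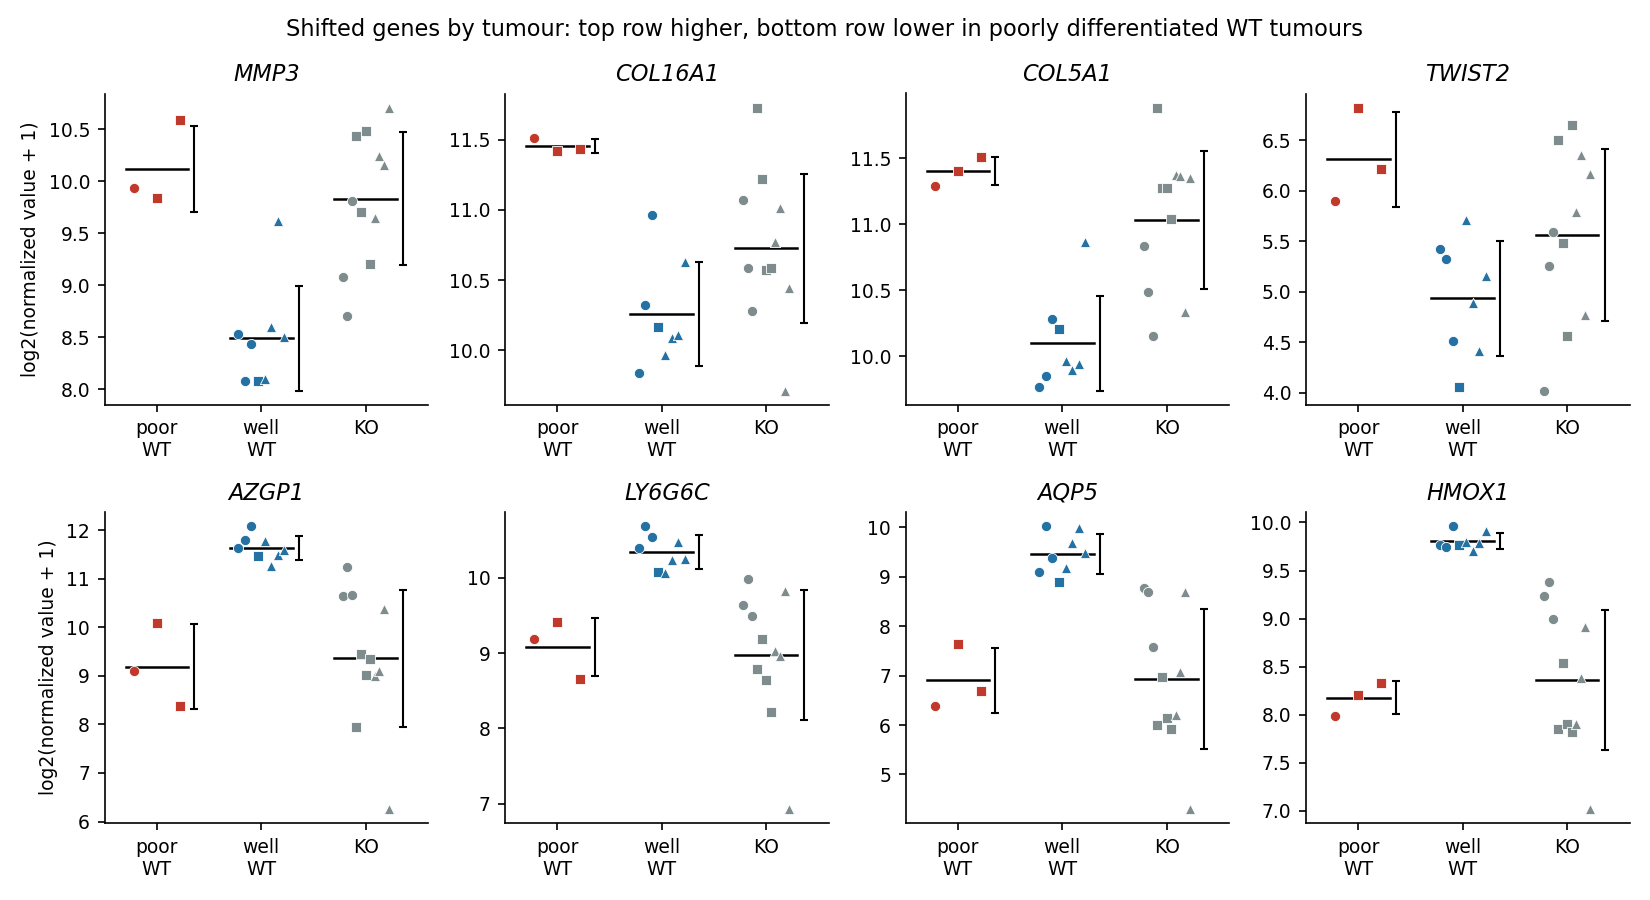
Level of 8 shifted genes, log2(normalized value + 1) on each y axis, in poorly differentiated WT, well differentiated WT and KO tumours from left to right; points are tumours, shapes are lines within a genotype, lines are means and bars SD. In the top row (MMP3, COL16A1, COL5A1, TWIST2) the 3 red points lie above the 8 blue ones, in the bottom row (AZGP1, LY6G6C, AQP5, HMOX1) below them; KO tumours overlap both WT groups in the top row, and in the bottom row all 11 lie below the lowest well differentiated tumour.

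Promoters are shown for the named shifted genes whose window holds a binding word of AP-1, the Fos and Jun dimer that acts in both epidermal differentiation and invasion. The window runs from 250 bases before to 50 after the RefSeq gene start on GRCh38.p14. Capitals mark TGACTCA or TGAGTCA, each the reverse complement of the other, so both strands are covered; the same search for EGR words (GCGTGGGCG, GCGGGGGCG and their reverse complements) found none in these 5. PSAPL1 (chr4:7434881-7435180, minus strand), IGFL3 (chr19:46124639-46124938, minus strand) and DIO2 (chr14:80211455-80211754, minus strand) were shifted lower. CA9 (chr9:35673678-35673977, plus strand) and CRABP1 (chr15:78340103-78340402, plus strand) were shifted higher.
PSAPL1: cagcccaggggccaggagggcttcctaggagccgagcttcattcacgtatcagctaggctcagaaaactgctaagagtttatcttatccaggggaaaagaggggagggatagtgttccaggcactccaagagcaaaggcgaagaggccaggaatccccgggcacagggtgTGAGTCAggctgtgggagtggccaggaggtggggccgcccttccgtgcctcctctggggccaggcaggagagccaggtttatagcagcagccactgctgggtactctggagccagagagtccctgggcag
IGFL3: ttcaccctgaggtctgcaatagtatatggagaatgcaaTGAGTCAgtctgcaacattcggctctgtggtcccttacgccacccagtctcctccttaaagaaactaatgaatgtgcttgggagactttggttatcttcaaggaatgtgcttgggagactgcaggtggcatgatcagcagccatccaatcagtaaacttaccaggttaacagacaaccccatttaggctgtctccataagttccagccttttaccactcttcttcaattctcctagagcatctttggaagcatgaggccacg
DIO2: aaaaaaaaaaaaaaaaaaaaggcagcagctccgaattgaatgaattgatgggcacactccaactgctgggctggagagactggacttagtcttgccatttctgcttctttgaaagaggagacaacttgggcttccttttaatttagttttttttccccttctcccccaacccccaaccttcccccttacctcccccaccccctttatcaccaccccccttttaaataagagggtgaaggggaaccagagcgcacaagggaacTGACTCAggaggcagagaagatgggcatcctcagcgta
CA9: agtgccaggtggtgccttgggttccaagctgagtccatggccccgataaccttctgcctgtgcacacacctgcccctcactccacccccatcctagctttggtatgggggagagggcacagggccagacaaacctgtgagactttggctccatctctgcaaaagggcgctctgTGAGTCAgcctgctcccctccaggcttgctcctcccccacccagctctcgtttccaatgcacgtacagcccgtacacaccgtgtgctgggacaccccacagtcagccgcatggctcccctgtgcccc
CRABP1: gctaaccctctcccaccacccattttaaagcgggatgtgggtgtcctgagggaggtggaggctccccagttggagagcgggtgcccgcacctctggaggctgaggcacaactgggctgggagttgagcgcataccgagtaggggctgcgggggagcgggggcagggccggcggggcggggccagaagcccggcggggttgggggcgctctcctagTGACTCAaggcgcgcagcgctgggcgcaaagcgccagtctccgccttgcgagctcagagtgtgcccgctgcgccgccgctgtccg
A promoter was found for 76 of the 141 lower and 43 of the 69 higher genes. AP-1 words stood in 9 of the 76 (11.8%) and 4 of the 43 (9.30%), against 363 of 10763 promoters of all tested genes (3.37%). EGR words stood in 2 of the 76 (2.63%) and 7 of the 43 (16.3%), against 1006 of 10763 (9.35%). These are matches of letters in a short window and carry no test.

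CA9 and CRABP1 had the smaller differences of those 5. CA9, a carbonic anhydrase induced by hypoxia, was at 275, 380 and 313 in 5529, 5530 and 5531, against 88.1 to 269 with a median of 159, a log2 difference of 1.01. It was the single hypoxia target of 29 that was shifted. The median difference of the list was -0.15 within 5B2 and 0.70 within 6C9. The 5B2 value rests on a single poorly differentiated tumour, 5529. The 6C9 value rests on a single well differentiated tumour, 5532, whose library had 7012040 estimated reads. A difference between lines therefore cannot be told from a difference between single tumours. CRABP1, a carrier of retinoic acid, was at 37.3, 55.4 and 51.8, against 11.2 to 35.6.

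Most shifts within the other 46 gene lists were small, and few list members met the shift rule. Of the lists with at least 5 tested members, fibroblast and matrix markers had the highest median difference, at 0.78, beside 0.01 over all genes. In it 17 of 18 genes were higher and 4 shifted (COL5A1, COL6A1, COL1A1, COL1A2). Over all genes 8139 of 15878 were higher and 0.466% shifted higher. Without 5531 the list's median was 0.41. The summed level of the list was 25950 in 5529, 22215 in 5530 and 30328 in 5531, against 12824 to 16433 with a median of 14079 in the 8, and the groups did not overlap. COL3A1, another fibroblast collagen, was at 1544, 1089 and 1626, against 486 to 924, without overlap. The remaining chosen fibroblast markers were at low levels and overlapped. LUM and THY1 were under the filter, with LUM at 2.88, 1.58 and 0.897, against 1.65 to 15.6. DCN was at 24.0, 15.0 and 26.0, against 8.43 to 34.3. PDGFRB was at 11.5, 7.11 and 29.6, against 0 to 12.4, a log2 difference of 0.85. Reads from mouse stroma may have been counted for human genes where the sequences of the species are alike, so collagen made by tumour cells and by mouse fibroblasts cannot be told apart, nor can more cells of a type be told from more RNA per cell.

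Markers of other host cells were at low levels or overlapped. Of 12 endothelial markers 7 were under the filter, and the summed level was 365, 351 and 426 in the 3 tumours, against 396 to 514. VWF, the clotting factor carrier of endothelium, was the 1 shifted gene of 5 tested, at 72.6, 70.3 and 76.0, against 129 to 191. Of these 5 genes 2 were higher and 3 lower. CDH5 and KDR, under the filter, had log2 differences of 0.71 and 0.09, so the markers did not move together. Macrophage and leukocyte markers summed to 629, 579 and 626, against 492 to 672. Skeletal muscle markers were at 747, 599 and 568 in sum, against 430 to 21099, so muscle RNA was abundant in some well differentiated tumours and low in others, and none of the 18 listed muscle genes was shifted. TRIM54, a muscle RING-finger protein outside the list and named after its values were seen, was at 0 in all 3 tumours, against 0.824 to 35.7 in the 8. It met the shift rule, but its mean of 10.2 lay just above the filter and came from the 8 tumours alone. The lowest of the 8 values is that of 1 read, so TRIM54 adds no support to the muscle list. The part of these cells in the differences was not tested.

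Lists of invasion were on the higher side. Over all tested genes, 8139 of 15878 were higher and 5.36% were higher without overlap. The partial epithelial-mesenchymal programme of squamous carcinoma had a median difference of 0.48 with 27 of 28 genes higher, 6 without overlap and 2 shifted, MMP3 among them. TGFBI, a matrix adaptor induced by TGF-beta, was at 8919, 7267 and 7979, against 3827 to 4853, a log2 difference of 0.91. PTHLH, the parathyroid hormone-related peptide, was at 733, 527 and 525, against 204 to 455. The list of epithelial-mesenchymal transition genes had a median of 0.54 over 20 genes, with TWIST2 the shifted one. In it 17 genes were higher, 6 of them without overlap, and 3 were lower, 1 of them without overlap. Its lowest difference was -1.06. MMP2 of this list was at 2411, 2092 and 2281, against 1121 to 1760. Matrix metalloproteinases and invasion proteases had a median of 0.37 over 18 genes, 6 of them higher without overlap. Among them PLAU, the urokinase activator of plasminogen, was at 6934, 6872 and 8248, against 3242 to 6034. Integrins had a median of 0.38 over 11 genes, and basal keratinocyte genes one of 0.32 with 20 of 22 higher. ITGA3, a laminin receptor subunit that belongs to both lists, was at 4655, 4666 and 5665, against 3282 to 4185. TGFBI, PTHLH, MMP2, PLAU and ITGA3 were chosen for mention after their values were seen, as members without overlap.

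The interferon and guidance lists also had medians above 0, while the interleukin-1 and interleukin-36 list had a median of -0.08. The shares to set beside them are again 8139 of 15878 genes higher and 5.36% higher without overlap. Interferon-stimulated genes had a median of 0.37 with 36 of 44 higher and none shifted; 6 were higher without overlap, among them IFITM1, at 803, 990 and 670, against 401 to 637. The list rests on 5530 more than on the others, since its score was 7.85 in 5529, 8.32 in 5530 and 7.68 in 5531, against 7.16 to 7.81 in the 8, and without 5530 the median was 0.14. OASL went the other way, at 155, 232 and 215, against 242 to 366. Neuropilins, semaphorins and plexins, receptors and ligands of axon guidance that also act in vessels and tumours, had a median of 0.33 over 26 genes. Of these genes 19 were higher, 7 of them without overlap, and 7 were lower, with differences down to -1.60. The most abundant members of the list were PLXNB2 and SEMA3C. PLXNB2, a plexin, was without overlap at 6278, 5551 and 6407, against 4113 to 5450. SEMA3C overlapped and had a log2 difference of -0.20. VEGFC, a growth factor of lymphatic vessels on that list, was at 250, 242 and 194, against 88.3 to 193. IFITM1, OASL and VEGFC were likewise chosen after their values were seen.

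Lists of biosynthesis and respiration were on the lower side, by small amounts. Over all tested genes, 7739 of 15878 were lower and 6.92% were lower without overlap. All 48 cytosolic ribosomal protein genes were lower, with a median of -0.33, 21 without overlap and none shifted. RPL8 and RPL3, the most abundant, overlapped, with differences of -0.19 and -0.09, and the list's median was -0.14 within 5B2 and -0.66 within 6C9. Nuclear genes of oxidative phosphorylation had a median of -0.30 with 36 of 39 lower and 20 without overlap. The most abundant members differed less and overlapped: ATP5F1B, a subunit of ATP synthase, was at 5370, 5180 and 5634, against 5076 to 6473, and ATP5F1A had a log2 difference of -0.13. COX7B, a subunit of cytochrome oxidase chosen after its values were seen, was at 544, 496 and 340, against 664 to 1647. Mitochondrially encoded transcripts had a higher mean in 13 of 13 genes with a median of 0.34, but none was without overlap. The score of this list was 14.30 in 5529, 13.77 in 5530 and 13.29 in 5531. The well differentiated tumours ranged from 13.06 to 14.26 with a mean of 13.43, so 5531 lay below their mean. The median difference of the mitochondrial list was 0.78 within 5B2 and -0.35 within 6C9. For this list and the ribosomal list, the 5B2 value rests on a single poorly differentiated tumour, 5529. The 6C9 value rests on a single well differentiated tumour, 5532, so no difference between lines can be read from them. Cholesterol and fatty acid synthesis had a median of -0.34 with 31 of 32 lower and 12 without overlap. SCD, the desaturase that makes oleate, was at 9208, 14827 and 15032, against 18220 to 28476.

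Growth lists did not separate the groups. Genes of mitosis had a median of -0.28 with 39 of 46 lower, but 1 without overlap in either direction. The mitosis median was 0.004 within 5B2 and -0.67 within 6C9, values that rest on the single tumours 5529 and 5532 respectively. DNA replication genes had a median of -0.24 over 44 genes, 2 without overlap. The lists of p53 targets, integrated stress response, unfolded protein response, heat shock proteins and cell cycle brakes had medians between -0.02 and 0.02.

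**Figure D4:**
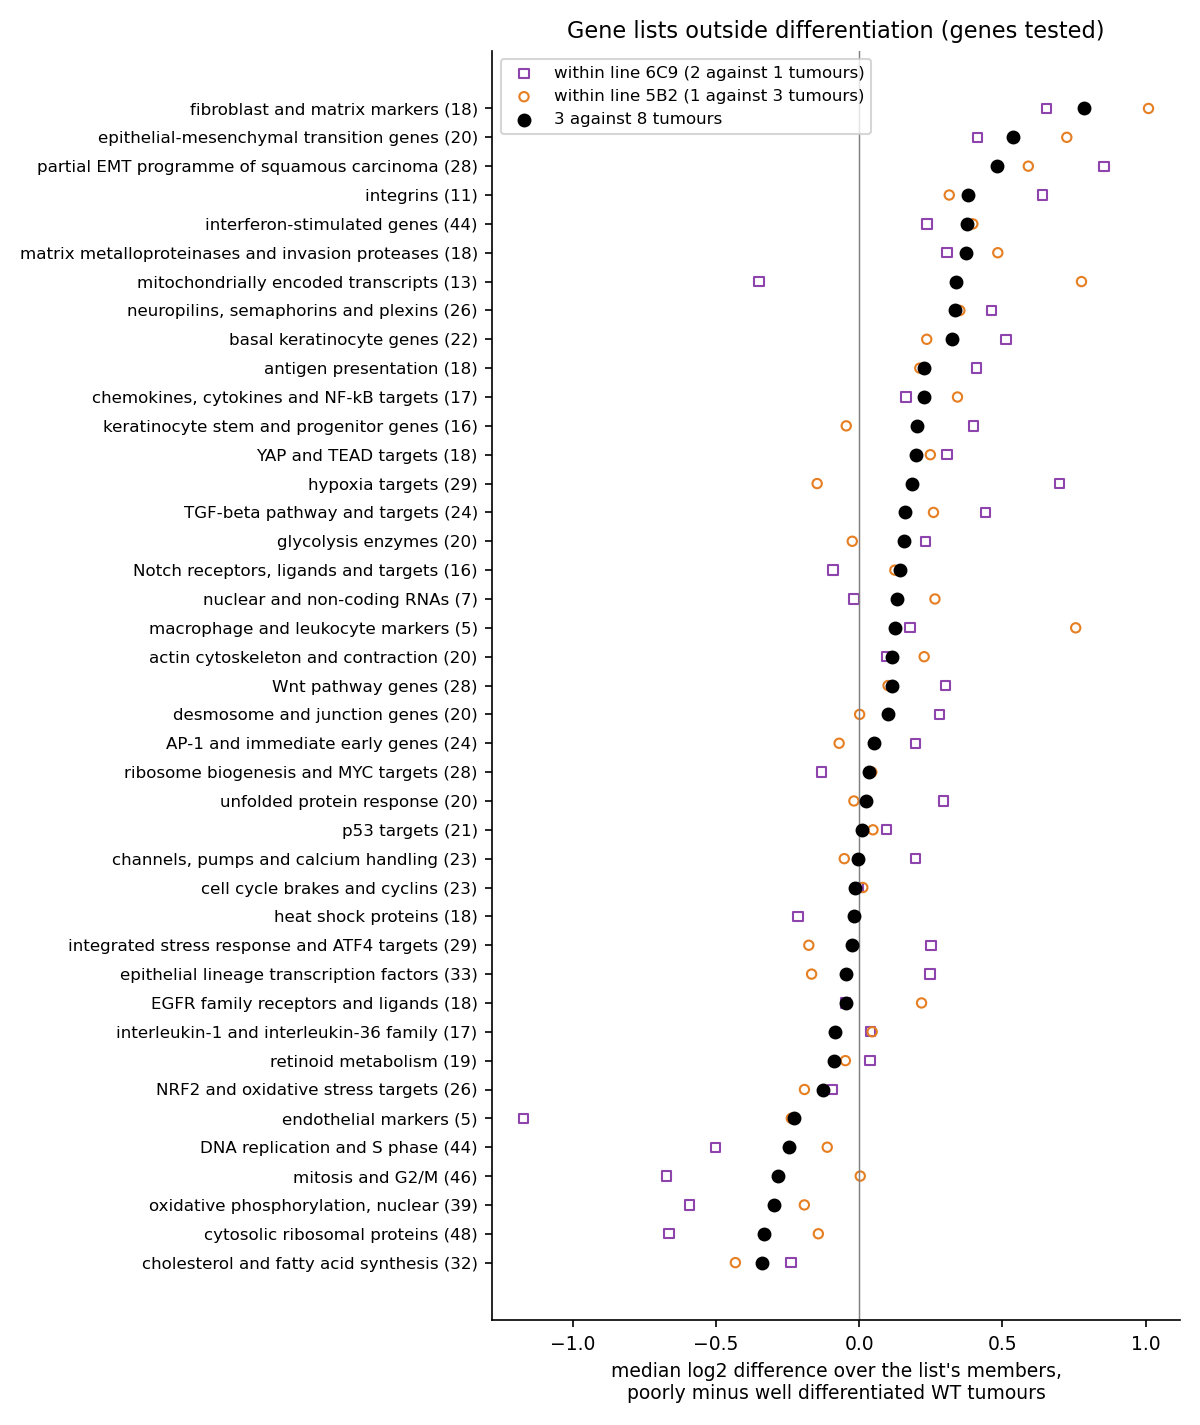
Median log2 difference, poorly minus well differentiated WT tumours (x axis), for each gene list outside differentiation with at least 5 tested genes (number in brackets), except skeletal muscle markers; filled points compare 3 with 8 tumours, open circles line 5B2 and open squares line 6C9. Matrix, mesenchymal and integrin lists lie at the top, between 0.38 and 0.78, and sterol, ribosomal and respiratory lists at the bottom, between -0.34 and -0.30. Open symbols rest on a single poorly differentiated tumour in 5B2 (5529) and a single well differentiated tumour in 6C9 (5532).

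Whether the same genes follow differentiation in tumours that the choice did not use was tested in the 11 KO tumours. Each gene's log2 value was regressed on the tumour's differentiation score with the line as a term in limma, and p-values were adjusted over all 15878 genes. A positive slope means more of the gene in better differentiated KO tumours, the side that matches a gene lower in poorly differentiated WT tumours. Across all genes 624 (3.93%) were called with a positive and 284 (1.79%) with a negative slope at an adjusted p under 0.05. Of the 141 lower genes, 119 had a positive slope, 40 were called positive and 1 was called negative. Late epidermal genes that remain among the 141 were not separated from the rest. Of the 69 higher genes, 50 had a negative slope, 0 were called and 7 had an unadjusted p under 0.05, the lowest adjusted p being 0.064.

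These calls rest on 1 tumour. Specimen 5549 of line 1G10 has by far the lowest score, 7.89, with the next at 9.36, and the fit without it called 0 genes in all in limma. At an unadjusted p under 0.05 that fit held 555 positive and 577 negative genes, 25 of the 141 lower genes among the positive and 7 of the 69 higher genes among the negative. The signs were 106 of 141 positive and 56 of 69 negative, beside 48.2% positive and 51.8% negative over all genes. Without both 5549 and the line term, a setting chosen after seeing the data, 193 genes (1.22%) were called positive and 111 (0.699%) negative. Then 129 of the 141 lower genes had a positive slope with 25 called, 19 of which were also called in the fit with all 11 tumours. Over all genes 47.2% of slopes were positive and 52.8% negative in that setting. Of the 69 higher genes 63 had a negative slope and 6 were called, among them MYO7B, CYS1, COL5A1, FIBCD1 and FSTL3. Without the line term, differences between lines enter the slope, and the lines differ in score. Tumours of 2F7 scored 10.27 to 10.42 and those of 2B8 9.36 to 9.98. Calls made without the line term therefore cannot be told apart from differences between the lines.

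LY6G6C gave the smallest p of the shifted genes. It ranged between 121 and 1012 in KO tumours, all below the lowest well differentiated WT tumour, with a slope of 1.14 per unit of score, SE 0.10 and adjusted p = 6.63e-05. MARCHF3, a ubiquitin ligase, had a slope of 1.34 with SE 0.12 and adjusted p = 7.77e-05. In WT tumours MARCHF3 was at 155, 175 and 135, against 295 to 480. EGR3 had a slope of 1.47 with SE 0.14, and AZGP1 the steepest of the 8 genes named for these slopes, 1.58 with SE 0.17. IGFL2 had a slope of 1.28 with SE 0.14 and CPM, a membrane carboxypeptidase, one of 1.14 with SE 0.13. XKRX, a protein of the XK family, and ELMOD1, a GTPase-activating protein, had slopes of 0.93 and 1.38. In these 8 genes the adjusted p was at most 0.000592 with all 11 tumours and between 0.219 and 0.703 without 5549, while the slope without 5549 was between 0.89 and 1.75. Without both 5549 and the line term the adjusted p was at most 0.0143 in 7 of the 8 and 0.104 in ELMOD1.

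**Figure D5:**
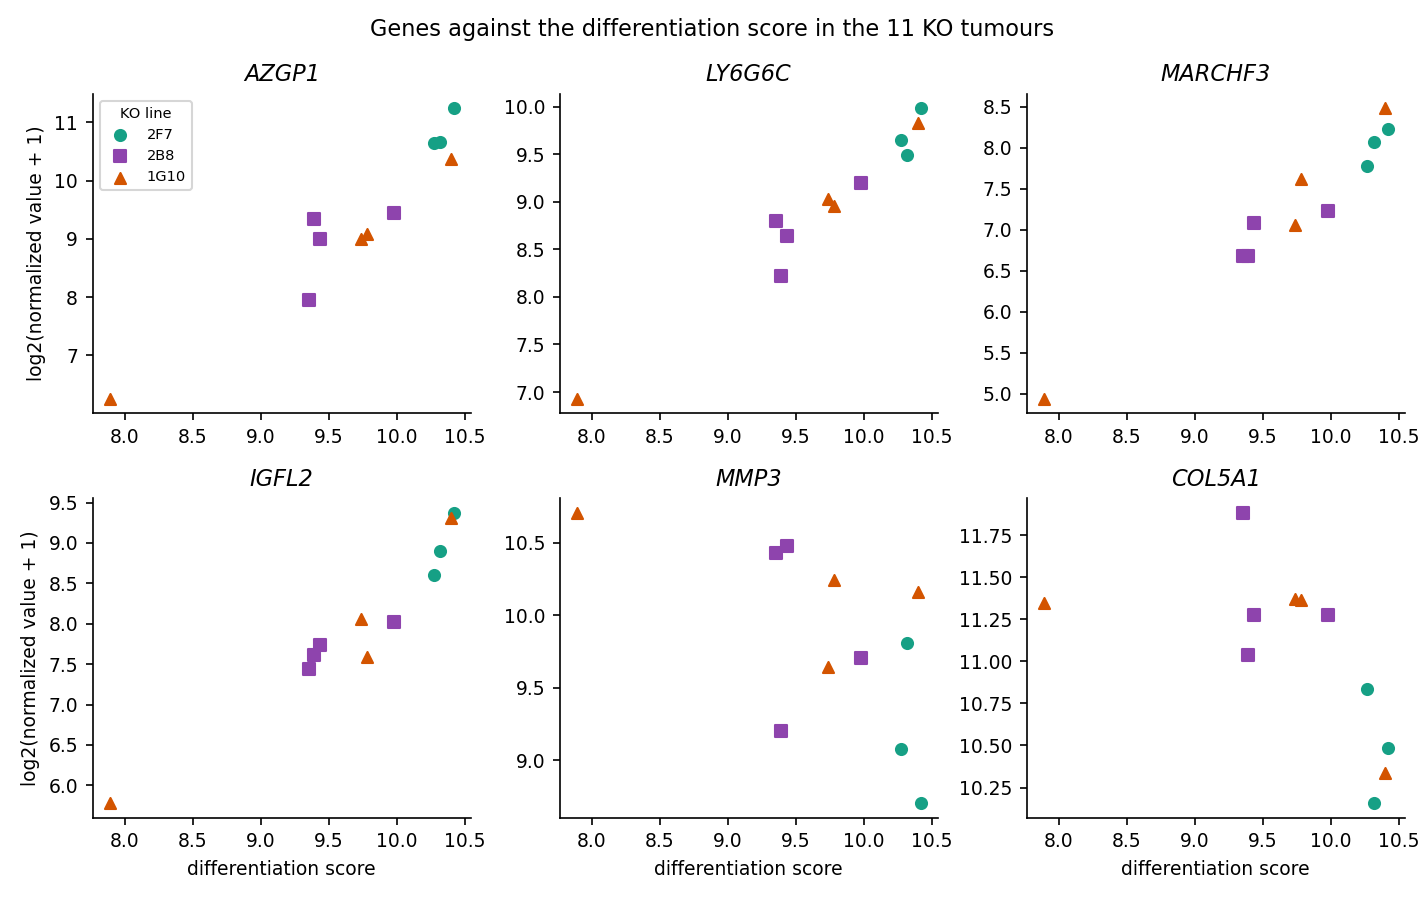
Level of 6 genes, log2(normalized value + 1) on each y axis, against the differentiation score (x axis) in the 11 KO tumours; points are tumours, colours and shapes are lines. AZGP1, LY6G6C, MARCHF3 and IGFL2 are lowest in 5549 at a score of 7.89 and highest among tumours at 10.3 to 10.4, while COL5A1 is high across scores of 7.89 to 9.98 and lower from 10.3 on, and MMP3 is highest in 5549 and scattered among the others.

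Others of the lower genes behaved unevenly in KO tumours. CARD18 had a slope of 2.18 with SE 0.41 and adjusted p = 0.0105, AQP5 one of 1.59 with SE 0.23 and adjusted p = 0.00182, and HMOX1 one of 0.74 with SE 0.10 and adjusted p = 0.00124. PSAPL1, which had the largest WT difference, had a slope of 1.11 with SE 0.38 and adjusted p = 0.126. MMP3 and DLGAP3, which led the higher genes, had slopes of -0.31 with SE 0.22 and -0.29 with SE 0.21. COL5A1 had a slope of -0.27 with SE 0.17 and adjusted p = 0.409 with all 11 tumours. Without both 5549 and the line term the slope was -1.05 with adjusted p = 0.0292. With the line term but without 5549 the slope was -0.98 with adjusted p = 0.641. Across KO tumours COL5A1 ranged between 1140 and 3778, which overlaps both WT groups.

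Members of several lists were called in the KO tumours as well. Among the partial epithelial-mesenchymal genes 6 of 28 were called negative (TGFBI, SERPINE2, TNC, VIM, CAV1, THBS1) and 0 positive, beside 1.79% negative and 3.93% positive calls over all genes, with a median slope of -0.31; without both 5549 and the line term 3 were called negative. TGFBI had a slope of -0.41 with SE 0.08 and adjusted p = 0.0139. Among AP-1 and immediate early genes 6 of 24 were called positive (EGR2, EGR3, IER2, IER5, KLF4, DUSP1), and among epithelial lineage transcription factors 10 of 33, which became 1 of 24 and 3 of 33 without both 5549 and the line term. For cholesterol and fatty acid synthesis the median slope was 0.08 with 1 of 32 called positive, and for cytosolic ribosomal proteins 0.04 with 0 of 48 called. The growth lists took the opposite side to the WT tumours: 36 of 46 mitosis genes and 21 of 44 replication genes were called negative, higher in less differentiated KO tumours. Without 5549 no gene of any list was called in the fit with the line term, and the median slope of the mitosis list was 0.02, against -0.75 with it. Interferon-stimulated genes had a median slope of -0.16 with 1 of 44 called in each direction, and -0.62 with 14 called negative without both 5549 and the line term.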

How the data were processed

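RNA-seq of 23 tumours was deposited as 1 table of normalized signal per gene; per the submitters' processing notes, STAR, DESeq2 and hg38 were used, and the authors' counting, strand setting and handling of mouse reads are not given in the sources used here. Libraries were made from 500 ng of RNA with a directional kit, per the labels. Reads per library were estimated from the step between low values; 70.2% to 76.4% of values up to 20 reads in 22 libraries were whole within 0.02, too few to recover counts, so values were analysed as log2(value + 1). Fold changes on that scale understate low genes. Of 27589 genes, the 15878 whose mean in the 11 WT tumours reached 10 were kept. The tumours compared, the gene lists and the families were chosen with earlier results of these data known.

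Named genes were, outside the families and protein coding, the 12 with the largest shift in each direction at a mean of at least 50 and the same sign within lines 5B2 and 6C9, up to 4 shifted members (otherwise the 2 with the highest mean) of each of 46 lists, and up to 8 in each direction also called in KO tumours. Those chosen outside this rule are marked, as are AZGP1P1, IGFL1 and genes listed by name for a call. Not every gene the rule takes is reported here. limma 3.58.1 in R 4.3.3 (trended variance, line term, Benjamini-Hochberg) fitted the KO slopes and was tested on simulated data; pandas 2.3.3 and numpy 2.4.6 made the descriptions. Alternatives were other pseudocounts, filters, scalings, lines, scores and left-out tumours. Standard errors are of the difference of means.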

Additional observations from a re-analysis of the deposited data

Results flagged for a closer look

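In the group of 8 well differentiated tumours, 38 measures were checked for a tumour far from the other 7, and 6 had one. The rule flags about 5% of groups by chance if values are normally distributed. Gene values and summed levels were checked without logs, so that share may not hold, and whether 6 of 38 exceeds chance was not tested. MMP3 was at 785 in 5536 and at 269 to 387 in the others. COL5A1 was at 1869 and CDK18 at 424 in 5537, with the others at 869 to 1247 and 199 to 304. TNFSF9 was at 316 in 5534 and at 206 to 254 in the others. In each of these genes except TNFSF9 the far tumour was the one nearest to the poorly differentiated tumours. Specimen 5532 had the lowest barrier lipid score, 9.00, with the others at 9.31 to 9.57, and the highest summed level of erythroid markers, 42.9, with the others at 4.46 to 19.9.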

How the results depend on the processing

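The differences of 37 named shifted genes and the 8 named slopes kept their sign under every alternative run, which for the differences the shift rule largely fixes. Of 63 named genes that were not shifted, 26 changed sign under at least 1 alternative, and of 45 list medians 22 did; the largest of these medians was that of mitochondrially encoded transcripts, 0.34. Genes outside the families were shifted higher in number 69 and lower in number 141. With a pseudocount of 10 these were 40 and 88, and with a filter at 50 they were 27 and 71; 122 were higher with a filter at 1. With 5533 kept 111 were higher, a difference of at least 1.5 left 18 and 55, and no overlap alone gave 843 and 1001. Within line 5B2, where 1 tumour stands on one side, there were 546 and 413, and within 6C9 1030 and 1158. Leaving out 1 tumour gave 68 to 186 higher and 131 to 270 lower genes; without 5528, 5530 or 5531 there were 162, 186 and 144 higher, and without 5529 or 5530 there were 214 and 270 lower.

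In KO tumours, 624 positive calls became 413 with equal totals, 193 without the line term and 5549, and 74 without the line term and the 2 tumours farthest from the median score (5549 and 5539); leaving out 1 tumour gave 0 to 799, with 353 without 5548. The 284 negative calls became 176 without a variance trend, 111 and 25 in those same settings, and 0 to 435 with 1 tumour left out: 172, 435, 189, 167 and 134 without 5539, 5540, 5543, 5547 and 5548. The 40 lower genes called positive became 25 and 13, and 0 to 43 with 1 tumour left out. The 0 higher genes called negative became 3 without the line term, 1 with the late list alone as score, 6 and 2 in the settings above, and 0 to 2 with 1 tumour left out. The cause of these moves was not tested. No paired analysis was possible because the specimen numbers are unique to each tumour and shared by no groups. Depth limits the precision of low genes.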

Other observations

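Specimen 5533 of WT line 6C9, left out of the comparison, had 2037789 estimated reads, 17582 genes detected and 6.21% mitochondrial signal. Its differentiation score was 11.04, above all other tumours. AZGP1 was at 9946, IGFL2 at 5180 and CARD18 at 1946 there, each above the highest of the 8 well differentiated tumours (4333, 1128 and 499). COL5A1 was at 228. EGR3 was at 402, within the range of the poorly differentiated tumours.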
